A study of Mus musculus with 9 samples.

Results

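Dimethyloxalylglycine (DMOG) was added on top of dexamethasone (Dex, a synthetic glucocorticoid) in cultured mouse BFU-E (early red cell progenitors named after burst-forming unit-erythroid colonies), and the transcripts of that culture were compared with those of cells given Dex alone. The comparison rests on 2 of the 9 libraries of the series, 1 library per condition, chosen by their labelled treatment, so no test between conditions was possible and no difference has a replicate check. The tested culture, written Dex+DMOG, received 100 nM Dex and 333 µM DMOG, and the culture it was set against received 100 nM Dex. A second pair, 333 µM DMOG and water, was set beside it where it helps to show the DMOG response without Dex. All 4 cultures began from C57BL/6 fetal livers, collected between embryonic days 13.5 and 14.5. Per the labels' protocols, the sorted cells were Kit-positive, negative for Ter119, CD34, CD41, CD16/32 and lymphoid and myeloid surface markers, and were the 10% with the lowest CD71 and CD24a. A serum-free expansion medium supplied erythropoietin at 2 U/mL, IGF-1 at 40 ng/mL and stem cell factor at 100 ng/mL. After 4 h in it the cells were divided equally between the 4 arms and cultured for 4 h more. The shared medium means that the Dex culture, too, was growing under stem cell factor, IGF-1 and erythropoietin. The labels do not say how many embryos were pooled.

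Cells measure oxygen through prolyl hydroxylases, encoded by the Egln genes, which use oxygen, iron and 2-oxoglutarate to mark the alpha subunits of the hypoxia-inducible factors (HIF) for degradation by the VHL ubiquitin ligase. DMOG is a cell-permeable analogue of 2-oxoglutarate that inhibits these enzymes and other 2-oxoglutarate-dependent dioxygenases, so that HIF alpha subunits build up while oxygen is present. They then pair with ARNT, bind DNA at a short core motif and raise transcription of genes for glucose uptake, glycolysis, the removal of mitochondria and the oxygen sensors themselves. In the body the same system controls the erythropoietin gene, and glucocorticoids such as Dex act through a separate nuclear receptor that expands early erythroid progenitors under stress. Setting Dex+DMOG against Dex addresses what inhibition of these enzymes changes in cells that already respond to the glucocorticoid.

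The depth recovered from the files was 52.8 M (mega) reads for Dex+DMOG and 19.04 M for Dex, and it was 40.1 M for DMOG and 18.4 M for water, so both cultures with DMOG were the deeper ones of their pair. Levels are in RPKM, reads per kilobase of transcript per M reads, and 3 reads on a transcript of 1 kb stand for 0.0568 RPKM in Dex+DMOG and 0.158 RPKM in Dex. Each library was divided by 1 scaling factor, and differences are on the log2(normalised RPKM + 1) scale, which understates the change of low genes. Fold thresholds apply on this same scale, so levels can differ by more than 2-fold in a gene that misses that threshold. Intervals given with a ratio of reads are exact (Clopper-Pearson) 95% intervals and cover counting error only. Genes of early erythroid progenitors were present in both libraries. Kit was at 79.0 RPKM in Dex+DMOG and 65.3 RPKM in Dex, and Gata1, the master regulator of the erythroid programme, was at 111 and 130 RPKM in the same order. The summed level of 10 erythroid progenitor markers was 932 RPKM in Dex+DMOG and 958 RPKM in Dex. In bulk RNA such as this, fewer cells of a type and less RNA per cell cannot be told apart.

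Few transcripts differed between Dex+DMOG and Dex, and the largest rises were mostly, but not only, in known HIF targets. Of 9567 genes at 1 or more normalised RPKM in either library, 19 were at least 2-fold higher in Dex+DMOG than in Dex (0.199%) and 4 were at least 2-fold lower (0.0418%). At a fold of 1.5, a threshold added after the values were seen, 67 were higher (0.7%) and 27 lower (0.282%). Of all genes compared, 89.9% lay within 1.2-fold of their level in Dex, and the median difference was 0.0039. Of the 19 higher genes, 10 belonged to lists of HIF target and glycolysis genes that together had 59 members among the genes compared. Genes of these lists filled 7 of the 10 highest ranks, 19 of the 50 highest and 26 of the 100 highest. The remaining 9 were Maff, Ppp1r3b, Lpl, Tent5c, Rpl24, Dynlt1b, Ndufb4 and 2 records without a matched symbol. With a pseudocount of 0.1 in place of 1, which weighs low genes more, 39 genes were 2-fold higher (0.408%) and 9 lower (0.0941%). The lists were drawn up with earlier results of these data known, so their counts describe the response and are no independent evidence for it.

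**Figure D1:**
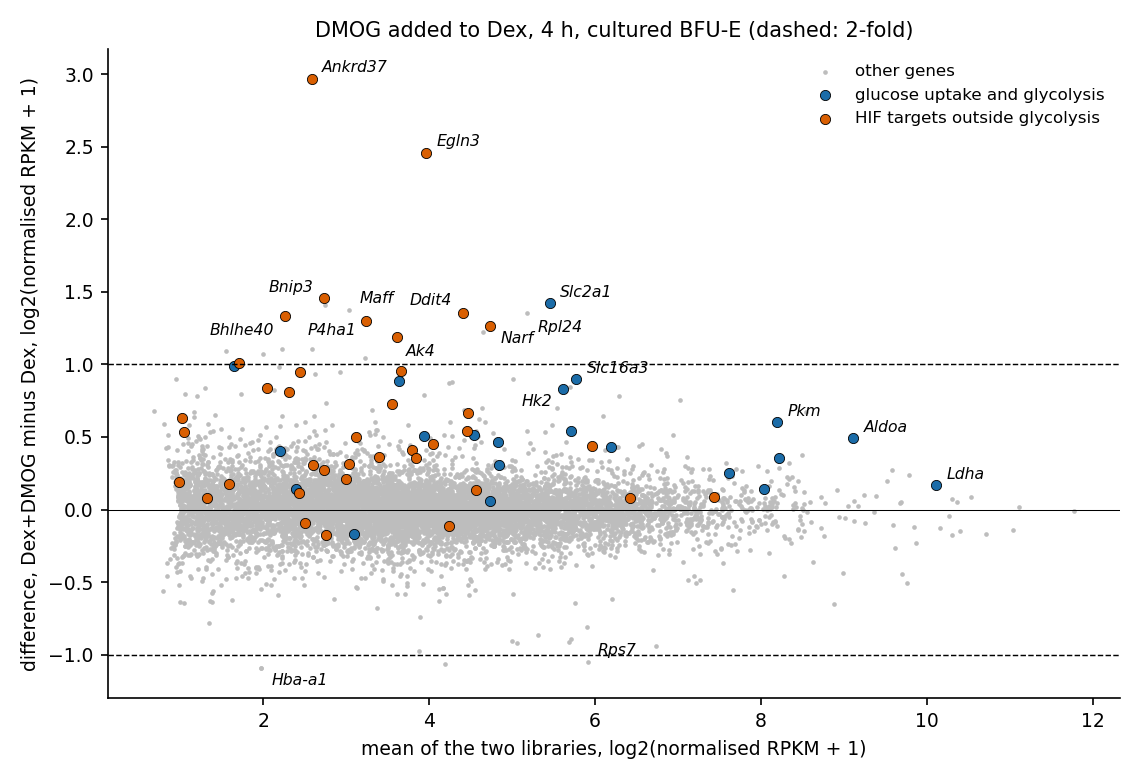
Difference between Dex+DMOG and Dex (y axis, log2(normalised RPKM + 1) scale) against the mean level of the same 2 libraries (x axis, same scale) for the 9567 genes compared, 1 point per gene, 1 library per condition. The 19 genes above the upper dashed line include 10 coloured HIF target and glycolysis genes, with Ankrd37 and Egln3 standing highest at 2.97 and 2.46, and only 4 genes lie below the lower dashed line.

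Ankrd37, a small ankyrin-repeat gene known as a direct HIF target, showed the largest difference. It was at 15.8 RPKM in Dex+DMOG and 1.14 RPKM in Dex, resting on 895 and 23 recovered reads, and the ratio was 13.8 (9.30 to 22.3). Its level was 20.3 RPKM in DMOG and 1.07 RPKM in water, so both cultures with DMOG were high and both without it were low. Egln3 encodes one of the HIF prolyl hydroxylases and is itself a HIF target, through which the pathway feeds back on itself. It was at 35.6 RPKM in Dex+DMOG and 5.65 RPKM in Dex, a ratio of 6.30 (5.63 to 7.05), and at 16.4 RPKM in DMOG and 1.48 RPKM in water. All 4 Egln3 levels differed from each other, and the culture with both agents was the highest. Slc2a1, which encodes the glucose transporter GLUT1, was at 70.6 RPKM in Dex+DMOG and 25.7 RPKM in Dex, a ratio of 2.74 (2.61 to 2.88). Its levels of 56.2 RPKM in DMOG and 23.7 RPKM in water were split in the same way. Bnip3, a mitochondrial outer membrane protein that recruits the autophagy machinery to mitochondria, was at 10.00 RPKM in Dex+DMOG and 3.01 RPKM in Dex, and 26.2% of its transcript sequence is shared with other genes or pseudogenes. In the cultures without Dex it was at 9.99 RPKM with DMOG and 2.65 RPKM with water.

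The proximal promoters of these 4 genes are shown because they hold matches to the core of the HIF binding site, searched as ACGTG and GCGTG on either strand. Sequences are RefSeq promoters on GRCm38.p6, from 250 bases before to 50 bases after the gene's start, and capitals mark every match, as CACGT or CACGC where the match is on the other strand. CACGTG holds ACGTG on both strands and is counted 2 times.
Ankrd37, chr8:45999801-46000100, minus strand: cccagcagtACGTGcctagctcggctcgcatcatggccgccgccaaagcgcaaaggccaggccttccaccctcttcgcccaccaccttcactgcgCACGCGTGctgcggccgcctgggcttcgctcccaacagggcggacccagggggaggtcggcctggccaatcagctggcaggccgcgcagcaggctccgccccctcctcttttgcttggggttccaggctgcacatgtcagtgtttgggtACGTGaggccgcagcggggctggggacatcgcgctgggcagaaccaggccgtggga
Egln3, chr12:54203825-54204124, minus strand: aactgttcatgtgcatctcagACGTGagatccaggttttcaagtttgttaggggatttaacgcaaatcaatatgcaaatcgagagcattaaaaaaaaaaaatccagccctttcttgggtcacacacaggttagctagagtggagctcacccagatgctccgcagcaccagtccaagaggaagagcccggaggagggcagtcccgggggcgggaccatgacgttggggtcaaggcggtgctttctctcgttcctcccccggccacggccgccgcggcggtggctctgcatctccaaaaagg
Bnip3, chr7:138909457-138909756, minus strand: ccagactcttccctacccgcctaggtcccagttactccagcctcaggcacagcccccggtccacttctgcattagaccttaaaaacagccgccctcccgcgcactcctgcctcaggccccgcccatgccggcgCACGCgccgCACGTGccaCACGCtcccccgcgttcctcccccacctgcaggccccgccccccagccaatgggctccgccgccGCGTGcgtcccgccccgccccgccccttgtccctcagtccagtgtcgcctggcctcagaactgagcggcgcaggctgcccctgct
Slc2a1, chr4:119108495-119108794, plus strand: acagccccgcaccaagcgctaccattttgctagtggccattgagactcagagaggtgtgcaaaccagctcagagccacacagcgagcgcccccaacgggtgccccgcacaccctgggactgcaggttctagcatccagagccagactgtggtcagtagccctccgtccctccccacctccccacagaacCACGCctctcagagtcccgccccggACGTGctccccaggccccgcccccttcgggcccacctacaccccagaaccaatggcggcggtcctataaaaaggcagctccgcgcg
Ankrd37 held 2 matches to ACGTG and 2 overlapping matches to GCGTG, and Egln3 held 1 match to ACGTG and 0 to GCGTG. Bnip3 held 2 and 3 matches, and Slc2a1 held 1 match to each. Of the 12 genes 2-fold higher that had an entry in the promoter table, 9 held ACGTG (75%), against 31.5% of 7639 genes compared with an entry and 21.8% of all 27025 promoters of the table. GCGTG was found in 9 of the 12 (75%), against 58.95% of the genes compared and 35.15% of the table. Among members compared, ACGTG stood in 20 of 28 promoters of HIF targets outside glycolysis (71.4%) and in 13 of 20 promoters of glycolysis genes (65%). GCGTG stood in 19 of the 28 (67.9%) and in 13 of the 20 (65%), beside 58.95% of the genes compared. Of the 3 lower genes with an entry, 0 held ACGTG and 3 held GCGTG. Either motif was thus found in 11 of the 12 higher genes (91.7%) and in all 3 lower genes, beside 70.9% of the genes compared. A match is a description of the letters in this window and not a bound site.

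Enzymes and transporters that carry glucose into the cell and down to lactate stood higher along nearly the whole pathway. Of 21 genes compared, 20 had a level above that of Dex, 6 were at least 1.5-fold higher, 1 at least 2-fold higher and 0 were 1.5-fold lower, with a median difference of 0.46. Among all genes compared, 51.1% had a level above that of Dex, 0.7% were 1.5-fold higher and 0.199% were 2-fold higher. At the entry step, Hk2, the inducible hexokinase that phosphorylates glucose, was at 64.1 RPKM in Dex+DMOG and 35.6 RPKM in Dex, while Hk1, the constitutive form, was at 274 and 249 RPKM. The phosphofructokinase subunit gene Pfkl was at 62.3 RPKM in Dex+DMOG and 42.4 RPKM in Dex, whereas the muscle-type subunit gene Pfkm was at 26.1 and 24.9 RPKM. Differences in these isoform pairs were thus 0.83 for Hk2 and 0.14 for Hk1, and 0.54 for Pfkl and 0.06 for Pfkm. Aldoc, an aldolase of low level here, was just outside the 2-fold threshold, with a difference of 0.99 and levels of 3.39 RPKM in Dex+DMOG and 1.21 RPKM in Dex.

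At the lower end of the pathway, Pgk1, phosphoglycerate kinase, was at 15.9 RPKM in Dex+DMOG and 8.14 RPKM in Dex, a difference of 0.89, with 68.2% of its sequence shared. Pkm, pyruvate kinase, was at 360 RPKM in Dex+DMOG and 237 RPKM in Dex, and Ldha, which turns pyruvate into lactate, was at 1176 RPKM in Dex+DMOG and 1047 RPKM in Dex, a ratio of 1.12 (1.11 to 1.14). Pkm has 49.8% and Ldha 33.4% of its transcript sequence in common with other genes or pseudogenes. So did 7 other genes of the list, Pgk1 among them, at 10% or more, the share at which a gene was called shared, and the levels of these 9 genes are uncertain. Gapdh, with 83.6% of its sequence shared, was listed at only 4.27 RPKM in Dex+DMOG and 2.98 RPKM in Dex. Slc16a3, which exports lactate and has no shared sequence by this measure, was at 73.5 RPKM in Dex+DMOG and 39.0 RPKM in Dex, a ratio of 1.89 (1.80 to 1.98). Pdk1, a pyruvate dehydrogenase kinase, was at 32.3 RPKM in Dex+DMOG and 23.1 RPKM in Dex. Pfkfb4, a bifunctional regulator of phosphofructokinase, was the 1 gene of the list below its Dex level, at 7.05 RPKM in Dex+DMOG and 8.04 RPKM in Dex.

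HIF targets with roles other than glycolysis made up 9 of the 19 genes 2-fold higher. They were 9 of 38 genes compared, out of 49 listed, beside 0.199% of all genes compared. At 1.5-fold, 16 of the 38 were higher, beside 0.7% of all genes, and 0 were lower. A gene under 1 RPKM in Dex, such as P4ha2 or Car9, was compared only through its Dex+DMOG level and could only stand higher. The reverse held for genes under 1 RPKM in Dex+DMOG, and the same filter applied to all genes compared. A level above that of Dex was found in 35 of the 38, beside 51.1% of all genes, and the median difference was 0.47. Together with glycolysis, 10 of 59 genes (16.9%) were 2-fold higher and 22 (37.3%) were 1.5-fold higher, beside the same 0.199% and 0.7%. The other 11 listed genes stood under 1 RPKM in both libraries, and Epo and Lox were listed at 0 in both.

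The 2-fold group outside glycolysis held genes of several functions. P4ha1, a prolyl hydroxylase of collagen, was at 13.8 RPKM in Dex+DMOG and 5.02 RPKM in Dex, and the lysyl hydroxylase gene Plod2 was at 3.61 and 1.29 RPKM, with the smallest difference inside the threshold, 1.01. Bhlhe40, a transcriptional repressor, was at 6.60 RPKM in Dex+DMOG and 2.02 RPKM in Dex. Ak4, a mitochondrial adenylate kinase, was at 17.5 and 7.11 RPKM, and Narf, a nuclear prelamin-binding factor, at 40.1 and 16.1 RPKM. All 5 genes were also higher with DMOG than with water, with differences of 0.70 for Plod2 and 1.04 to 1.31 for the other 4.

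On the log2(normalised RPKM + 1) scale, genes between 1.5-fold and 2-fold included Kdm3a, Hmox1, Ndrg1, Egln1, Ero1a and P4ha2. Ratios without the added 1 were larger, at 2.06 for Kdm3a and 2.25 for Hmox1. Hmox1, heme oxygenase, was at 6.53 RPKM in Dex+DMOG and 2.90 RPKM in Dex, and at 9.89 RPKM in DMOG and 3.95 RPKM in water. Ero1a, an oxidase of the endoplasmic reticulum, was at 26.9 RPKM in Dex+DMOG and 16.6 RPKM in Dex. Classical HIF targets with small differences were Vegfa, the angiogenic growth factor, at 10.9 RPKM in Dex+DMOG and 8.23 RPKM in Dex, and Bnip3l, which clears mitochondria from maturing red cells, at 15.2 and 11.7 RPKM. Tfrc, which encodes CD71 and takes up iron, was at 177 RPKM in Dex+DMOG and 167 RPKM in Dex.

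**Figure D2:**
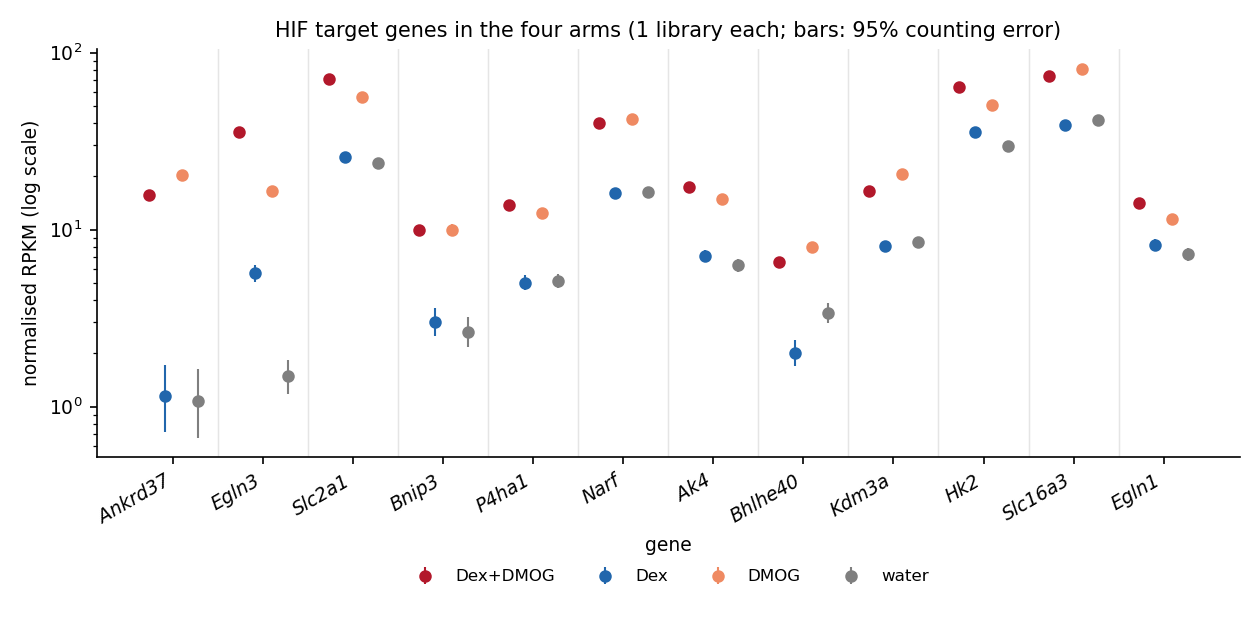
Levels (normalised RPKM, log axis) of 12 HIF target and glycolysis genes in Dex+DMOG, Dex, DMOG and water, 1 library each, with bars for the exact 95% Poisson interval of the read count. In each of the 12 genes both cultures with DMOG stand above both cultures without it, for example Slc2a1 at 70.6 and 56.2 RPKM with DMOG against 25.7 and 23.7 RPKM without.

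The oxygen-sensing machinery itself differed by member. Egln1, the main HIF prolyl hydroxylase and also a HIF target, was at 14.1 RPKM in Dex+DMOG and 8.14 RPKM in Dex, a ratio of 1.73 (1.59 to 1.89). Egln2, the third member of the family, was at 25.4 RPKM in Dex+DMOG and 33.3 RPKM in Dex, a ratio of 0.763 (0.718 to 0.811), and at 29.2 RPKM in DMOG and 31.2 RPKM in water. Transcripts of the HIF subunits differed little. Hif1a was at 18.7 RPKM in Dex+DMOG and 18.6 RPKM in Dex, and its partner Arnt at 12.5 and 12.3 RPKM. Hif3a, an alpha subunit with inhibitory splice forms, was at 58.7 RPKM in Dex+DMOG and 54.7 RPKM in Dex, against 21.5 RPKM in DMOG and 18.1 RPKM in water. Epas1, the gene of the other main alpha subunit, was at 0.103 RPKM in Dex+DMOG and 0.0168 RPKM in Dex and was not compared. Vhl was at 7.08 and 6.85 RPKM and Hif1an, which encodes the asparaginyl hydroxylase of HIF, at 19.3 and 18.9 RPKM, in Dex+DMOG and Dex.

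Other enzymes that use 2-oxoglutarate, the cofactor DMOG competes with, were compared at the transcript level. Of 32 dioxygenases of histones, DNA and RNA, 0 passed 2-fold and 1 passed 1.5-fold on the scale used, with a median difference of 0.01. The 1 gene was Kdm3a, a histone demethylase and HIF target, at 16.5 RPKM in Dex+DMOG and 8.03 RPKM in Dex, and at 20.6 RPKM in DMOG and 8.52 RPKM in water. Tet2, which oxidises methylated cytosine, was at 4.52 RPKM in Dex+DMOG and 3.29 RPKM in Dex. Of 11 protein hydroxylases of this family, 2 were 2-fold higher, P4ha1 and Plod2, both HIF targets named above, and P4ha2 was at 1.52 RPKM in Dex+DMOG and 0.630 RPKM in Dex. Of 25 genes of the TCA cycle and 2-oxoglutarate metabolism, 0 passed 1.5-fold in either direction, with differences between -0.15 and 0.21. Transcript levels do not measure the activity of any of these enzymes.

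**Figure D3:**
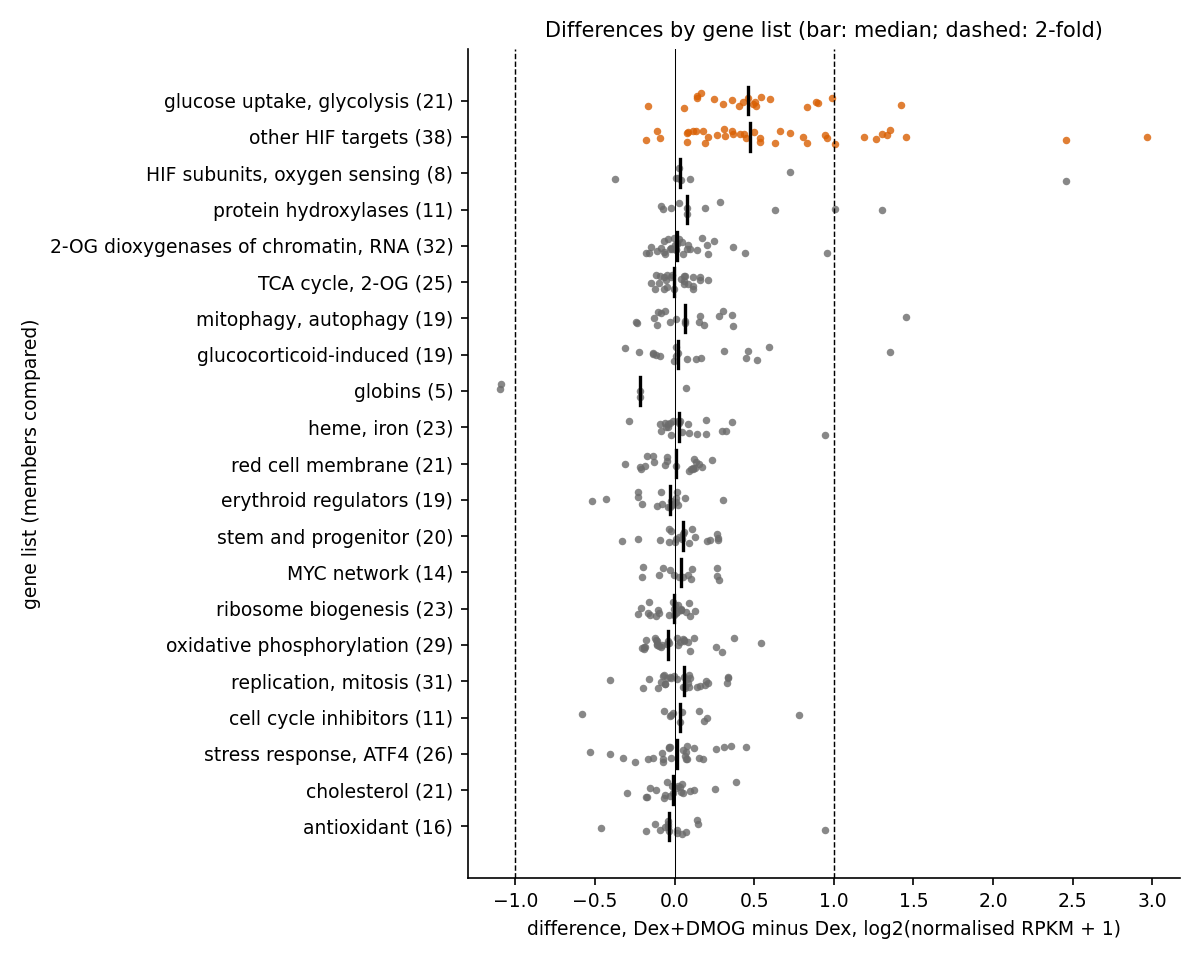
Differences between Dex+DMOG and Dex (x axis, log2(normalised RPKM + 1) scale) for the members compared of 21 gene lists, 1 point per gene, with the median of each list as a bar. Medians of 0.46 and 0.47 set the glycolysis list and the other HIF targets to the right, while the other lists except the globins, at -0.22, have medians between -0.04 and 0.08.

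Genes of the glucocorticoid response differed in both directions around a median near 0. Of 19 genes compared from a list of glucocorticoid-induced genes, Ddit4 was 2-fold higher, Errfi1 passed 1.5-fold and 0 were 1.5-fold lower. The median difference was 0.02, with a range from -0.31 for Dusp1 to 1.35 for Ddit4. Not every gene of the list stood higher in Dex than in water in these cultures. Fkbp5, a chaperone of the glucocorticoid receptor, was at 64.4 RPKM in Dex+DMOG and 64.4 RPKM in Dex, against 21.6 RPKM in DMOG and 22.9 RPKM in water. Zfp36l2, an RNA-binding protein known to keep BFU-E in the progenitor state, was at 66.9 RPKM in Dex+DMOG and 66.5 RPKM in Dex, against 28.3 RPKM in DMOG and 32.2 RPKM in water. For both genes the 2 cultures with Dex were high and the 2 without it low, whether or not DMOG was present. Tsc22d3, the anti-inflammatory protein GILZ, was at 15.3 RPKM in Dex+DMOG and 18.0 RPKM in Dex, and the circadian gene Per1 at 11.2 and 12.2 RPKM. The metallothionein gene Mt2 was at 146 RPKM in Dex+DMOG and 102 RPKM in Dex, and at 69.7 RPKM in DMOG and 45.4 RPKM in water. Nfkbia, an inhibitor of NF-kappaB, was at 3.98 RPKM in Dex+DMOG and 2.61 RPKM in Dex, and Dusp1, a phosphatase of MAP kinases, at 1.07 and 1.57 RPKM. Errfi1, a feedback inhibitor of EGF receptors, was at 1.14 RPKM in Dex+DMOG and 0.416 RPKM in Dex, and at 1.13 RPKM in DMOG and 0.581 RPKM in water. Under 1 RPKM in Dex, Errfi1 was compared only through its Dex+DMOG level and could only stand higher. It did not stand higher in Dex than in water, nor did Nfkbia and Dusp1, at 2.89 and 1.59 RPKM in water. Nr3c1, which encodes the glucocorticoid receptor, was at 18.3 RPKM in Dex+DMOG and 13.1 RPKM in Dex.

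Genes that respond to Dex were also taken from a pair of libraries that shares none with the others, BFU-E sorted by CD71 alone and cultured with Dex or water, at 12.9 M and 11.9 M reads. In that pair 81 genes were at least 2-fold higher with Dex (0.84% of 9638) and 136 at least 2-fold lower (1.41%). Of the 81, 74 were compared here, with a median difference between Dex+DMOG and Dex of 0.0028, and 38 of the 74 had a level above that of Dex. Of these, 5 were 2-fold higher with DMOG on top of Dex, a share of 6.76% beside 0.199% of all genes compared, and 0 were 2-fold lower. Of the 136 genes lower with Dex, 93 were compared, 0 were 2-fold higher and 2 were 2-fold lower with DMOG, and the median difference was 0.01. The 2 were the alpha-globin copies Hba-a1 and Hba-a2. With a pseudocount of 0.1, which also changes the genes that pass 2-fold in the CD71 sort, 13 of 120 genes higher with Dex and 3 of 152 lower with it were 2-fold higher with DMOG, beside 0.408% of all genes compared.

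The 5 genes higher with Dex in the CD71 sort and higher again with DMOG were Egln3, Ddit4, Maff, Tent5c and Ppp1r3b. Ddit4 (also named REDD1), an inhibitor of mTOR signalling known to be induced by both glucocorticoids and hypoxia, was at 32.8 RPKM in Dex+DMOG and 12.2 RPKM in Dex, and at 10.7 RPKM in DMOG and 3.09 RPKM in water. Its ratio of Dex+DMOG to Dex was 2.68 (2.44 to 2.96). In the CD71 sort Ddit4 was at 19.4 RPKM with Dex and 2.34 RPKM with water, and Egln3 at 15.8 and 2.02 RPKM. Like Egln3, Ddit4 was highest with both agents, lowest with water and between with either alone. Tent5c, a poly(A) polymerase, was at 12.4 RPKM in Dex+DMOG and 5.51 RPKM in Dex, and at 11.0 RPKM in DMOG and 2.37 RPKM in water. Ppp1r3b, a subunit that directs a phosphatase to glycogen, was at 3.25 RPKM in Dex+DMOG and 0.999 RPKM in Dex. Its levels were 0.856 RPKM in DMOG and 0.361 RPKM in water. Just under 1 RPKM in Dex, Ppp1r3b was compared only through its Dex+DMOG level and could only stand higher.

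Maff, a small MAF transcription factor, had another pattern. It was at 12.1 RPKM in Dex+DMOG and 4.06 RPKM in Dex, a ratio of 2.99 (2.55 to 3.51), but at 2.72 RPKM in DMOG and 2.49 RPKM in water, a ratio of 1.09 (0.864 to 1.38). The culture with both agents thus stood apart from the other 3. Whether the 2 differences differ was not tested, since each rests on 1 library per condition. Lpl, lipoprotein lipase, was at 4.76 RPKM in Dex+DMOG and 1.74 RPKM in Dex, and at 1.203 RPKM in DMOG and 0.558 RPKM in water, so the DMOG culture was the higher one in both pairs. Slc30a10, a manganese transporter, was at 9.51 RPKM in Dex+DMOG and 4.45 RPKM in Dex, and the interleukin-10 receptor gene Il10ra at 7.51 and 3.45 RPKM. Both passed 1.5-fold but not 2-fold on the log2(normalised RPKM + 1) scale, with differences of 0.95 and 0.93.

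**Figure D4:**
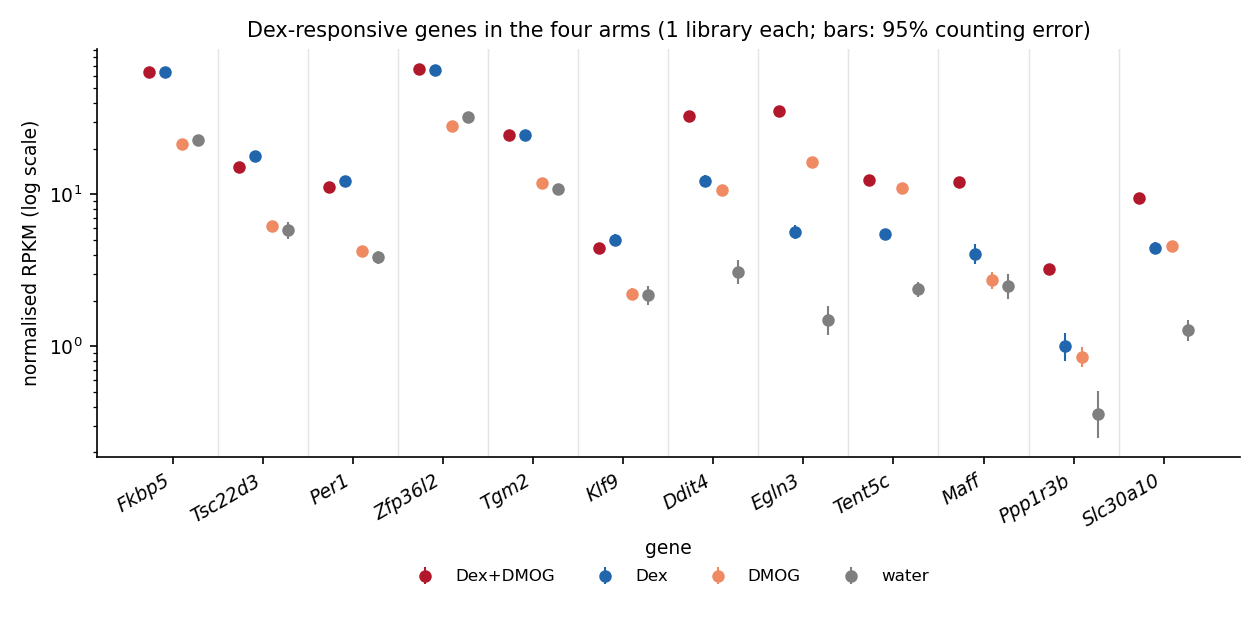
Levels (normalised RPKM, log axis) of 12 genes that stood higher in Dex than in water, drawn for Dex+DMOG, Dex, DMOG and water, 1 library each, with bars for the exact 95% Poisson interval of the read count. The 6 genes on the left differ less between Dex+DMOG and Dex, from Fkbp5 at 64.4 and 64.4 RPKM to Tsc22d3 at 15.3 and 18.0 RPKM. The 6 on the right are highest in Dex+DMOG, such as Ddit4 at 32.8 RPKM against 12.2 RPKM in Dex.

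The DMOG response with Dex was set beside the DMOG response without it, from the DMOG and water libraries of the same sort, which share no library with Dex+DMOG and Dex. Without Dex, 16 of 9625 genes compared were at least 2-fold higher (0.166%) and 8 at least 2-fold lower (0.0831%). At 1.5-fold, 0.436% were higher and 0.218% lower. There were 10 genes 2-fold higher in both pairs, 52.6% of the 19 and 62.5% of the 16. They were Ankrd37, Egln3, Bnip3, Slc2a1, Ddit4, Bhlhe40, P4ha1, Narf, Ak4 and Tent5c. Of the 19 genes higher with Dex, 18 were above 0 without it, with a median of 1.30 with Dex and 1.04 without. The 19 were chosen by their difference with Dex, which favours a higher median there. The 2 medians therefore do not compare the strength of the 2 responses. All 16 genes higher without Dex were also above 0 with it. The 6 of them that missed 2-fold with Dex on the scale used were Kdm3a, Hmox1, Slc30a10, Il10ra, Smtnl2 and Gapdh. No gene was 2-fold lower in both pairs.

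Across 9481 genes compared in both pairs, Pearson's r between the 2 differences was 0.365 and Spearman's rho 0.21. These are given as a description only, since genes are not independent and both libraries with DMOG were the deeper of their pair. Without Dex the glycolysis list had a median difference of 0.51, with 9 of 21 genes at least 1.5-fold higher, and the other HIF targets a median of 0.37, with 13 of 37. Of the 2 lists together, 22 of 59 genes were 1.5-fold higher with Dex and 22 of 58 without, and 18 genes were so in both pairs. Among the 6 cultured libraries, including the 2 of the CD71 sort, 14 of the 19 higher genes had their highest level in Dex+DMOG, a count that the choice of genes by their difference partly fixes.

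**Figure D5:**
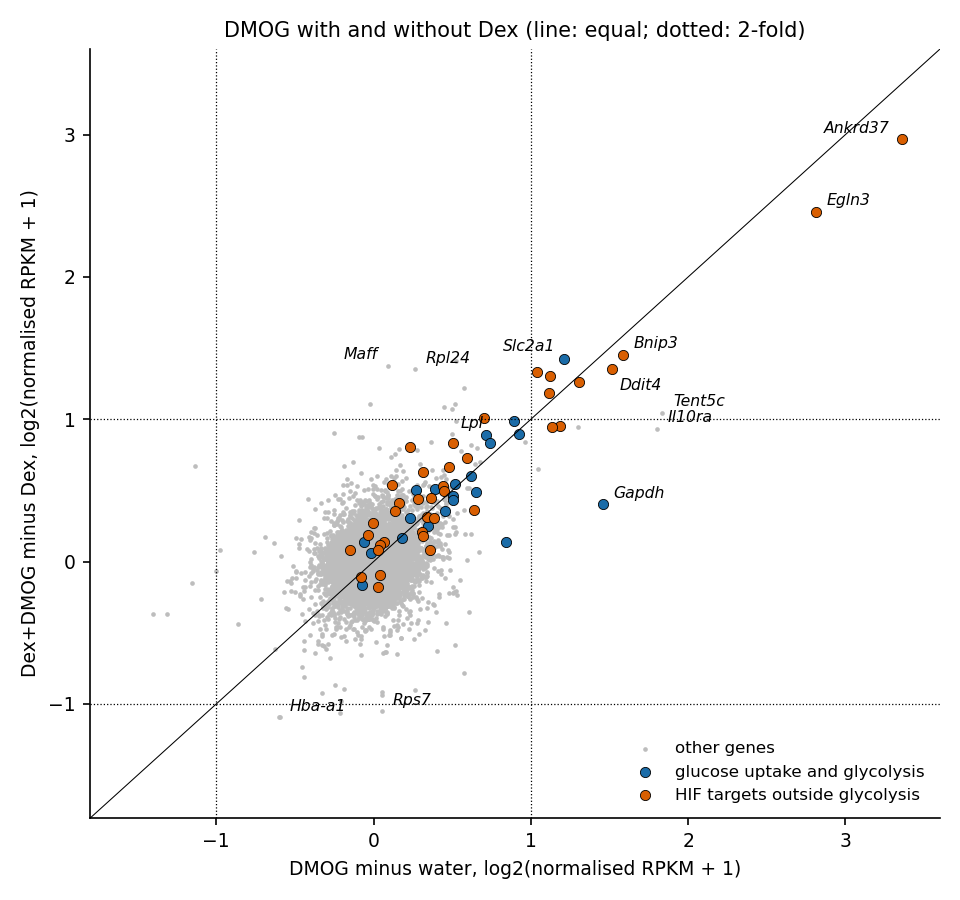
Difference of Dex+DMOG minus Dex (y axis) against the difference of DMOG minus water (x axis), both on the log2(normalised RPKM + 1) scale, 1 point per gene compared between Dex+DMOG and Dex. HIF target and glycolysis genes lie along the line of equal differences up to Ankrd37, at 2.97 and 3.36, while Maff, at 1.38 and 0.09, lies above it.

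Genes lower with DMOG were fewer and rest on less certain levels. The 4 genes at least 2-fold lower, Hba-a1, Hba-a2, Ubb-ps and Rps7, all share 64.1% or more of their sequence with other genes or pseudogenes. Hba-a1, alpha-globin, was at 1.68 RPKM in Dex+DMOG and 4.73 RPKM in Dex, resting on 72 and 73 recovered reads, a ratio of 0.356 (0.2535 to 0.4999). It was at 3.04 RPKM in DMOG and 5.12 RPKM in water, so both DMOG cultures were below their counterparts. Hba-a2 is a near-identical copy with nearly the same values and adds no separate evidence. The beta-globin gene Hbb-bt was at 37.5 RPKM in Dex+DMOG and 43.8 RPKM in Dex, but at 170 RPKM in DMOG and 119 RPKM in water, and 58.9% of its sequence is shared. Slc4a1, the anion exchanger of maturing red cells, was at 0.906 RPKM in Dex+DMOG and 1.37 RPKM in Dex. Under 1 RPKM in Dex+DMOG, it was compared only through its Dex level and could only stand lower. The part of more mature cells in the globin values was not tested. With genes of 10% or more shared sequence left out, 0 genes were 2-fold lower on the log2(normalised RPKM + 1) scale. Cox7a1, with no shared sequence by this measure, missed that threshold at 0.932 RPKM in Dex+DMOG and 2.33 RPKM in Dex. Its levels rest on 22 and 20 recovered reads, and the added 1 shrinks the change of such low genes. Cox7a1, too, was compared only through its Dex level and could only stand lower.

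Among the genes with the largest falls common to both pairs, several had little shared sequence. Cldn13, a claudin found in erythroid cells of the mouse, was at 10.5 RPKM in Dex+DMOG and 18.2 RPKM in Dex, and at 14.7 RPKM in DMOG and 20.6 RPKM in water. Atf7ip, a cofactor of heterochromatin silencing, was at 4.84 and 7.93 RPKM in Dex+DMOG and Dex, and at 6.11 and 9.96 RPKM in DMOG and water. Txnip, an inhibitor of glucose uptake and of thioredoxin, was at 18.4 RPKM in Dex+DMOG and 27.5 RPKM in Dex, and at 10.7 RPKM in DMOG and 14.9 RPKM in water. Of these 3 genes, Cldn13 and Atf7ip passed 1.5-fold on the scale used with Dex, and Txnip, at -0.56, did not.

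Few genes of the erythroid programme and of growth passed 1.5-fold. Of 23 heme and iron genes, 1 passed 1.5-fold, Hmox1. The rate-limiting heme enzyme gene Alas2 was at 4.41 RPKM in Dex+DMOG and 4.61 RPKM in Dex. On the scale used, 0 of 21 red cell membrane genes, 19 erythroid regulators and 20 stem and progenitor genes passed 1.5-fold in either direction. The same was true of 14 MYC network genes, 23 ribosome biogenesis genes, 29 oxidative phosphorylation genes and 31 genes of replication and mitosis. The added 1 shrinks the change of low genes, such as Trim10, given below. The cytochrome c gene Cycs was another, at 1.66 RPKM in Dex+DMOG and 1.06 RPKM in Dex. Of the 19 erythroid regulators, 6 had a level above that of Dex, beside 51.1% of all genes compared, and the median difference was -0.03. The lowest differences were -0.52 for Trim58, an erythroid ubiquitin ligase, at 8.82 RPKM in Dex+DMOG and 13.1 RPKM in Dex, and -0.43 for Trim10, at 0.675 and 1.26 RPKM. Under 1 RPKM in Dex+DMOG, Trim10 was compared only through its Dex level and could only stand lower. Without Dex, Trim58 was at 6.08 RPKM with DMOG and 5.77 RPKM with water. Cited4, a transcriptional cofactor, was at 10.003 RPKM in Dex+DMOG and 11.9 RPKM in Dex. The erythropoietin receptor gene Epor was at 37.6 RPKM in Dex+DMOG and 38.3 RPKM in Dex, and Klf1, an erythroid transcription factor, at 62.4 and 66.3 RPKM. Myb, a transcription factor of proliferating progenitors, was at 66.4 RPKM in Dex+DMOG and 83.7 RPKM in Dex, a ratio of 0.794 (0.769 to 0.819), and Myc was at 139 and 160 RPKM. The mitotic kinase gene Cdk1 was at 33.7 RPKM in Dex+DMOG and 29.0 RPKM in Dex. Ccng2, an atypical cyclin that restrains the cell cycle, was the only one of 11 cell cycle inhibitors past 1.5-fold. It was at 2.01 RPKM in Dex+DMOG and 0.755 RPKM in Dex. Under 1 RPKM in Dex, Ccng2 was compared only through its Dex+DMOG level and could only stand higher.

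Markers of other cell types had low summed levels in most lists, and the megakaryocyte markers had the highest sum. Of 12 macrophage marker genes, 11 had a record, 0 reached 1 RPKM in either library, and their summed level was 0.943 RPKM in Dex+DMOG and 0.979 RPKM in Dex. The 18 neutrophil, basophil and mast cell markers summed to 5.58 and 6.23 RPKM, 8 endothelial markers to 10.2 and 9.78 RPKM, and 8 lymphoid markers to 1.77 and 2.65 RPKM. The 10 hepatocyte markers, which fetal liver could contribute, summed to 15.4 RPKM in Dex+DMOG and 12.3 RPKM in Dex, with Alb at 3.58 and 2.94 RPKM. The 12 megakaryocyte markers with a record summed to 52.8 RPKM in Dex+DMOG and 57.2 RPKM in Dex, and they include Itga2b, the gene of the gated CD41, at 18.0 and 18.9 RPKM. Pf4, a platelet chemokine, was the one marker compared in these lists that passed 1.5-fold on the scale used. It was at 2.29 RPKM in Dex+DMOG and 0.839 RPKM in Dex, and at 3.39 RPKM in DMOG and 1.26 RPKM in water. Under 1 RPKM in Dex, Pf4 was compared there only through its Dex+DMOG level and could only stand higher. The part of other cell types in the differences was not tested.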

How the data were processed

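RNA-seq libraries of cultured BFU-E were analysed from the RPKM values deposited by the authors, 1 table per library with 23041 RefSeq transcript records. Per the submitters' processing notes, reads were placed on mm9. No source used here names the aligner or counting tool, or says how strand and multiply matching reads were treated. The paired-end libraries were made from 300 bp bands, per the labels' protocols.

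The 4 files of the CD71 and CD24a sort held 5954 to 7412 values of exactly 1 and no 0, so an exact 1 was read as 0. Low RPKM values step by what 1 read is worth, which with GENCODE M21 transcript lengths gave depth and reads per gene. Of values up to 10 reads, 66.8% to 69.8% came out whole within 0.1 reads, against 20% by chance, and lengths from another build add to the misses. PCR copies are not independent molecules, so intervals cover counting error only. Since the tables are not counts and each condition has 1 library, no test was made.

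Symbols came from RefSeq for 22397 records and from GENCODE for 114, and 530 had none. Each of 19840 genes was represented by its record of highest mean. Each library was divided by the median ratio to the geometric mean over 6888 genes that reached 1 RPKM in every one of 9 libraries, a factor of 1.16 for both Dex+DMOG and Dex. Genes at 1 or more normalised RPKM in either library were compared, with a pseudocount of 1 and a fixed threshold of 2-fold. To measure shared sequence, 1 in 4 of the 32-base words in a gene's transcripts was looked up in other genes and pseudogenes, and 10% or more was called shared.

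The text names members of the lists, the 15 largest differences each way and the 10 largest common to both DMOG pairs each way. Other genes, such as Lpl, Slc30a10, Il10ra and Smtnl2, were named after their values were seen. The pair, the lists and the rules were chosen with earlier results of these data known. The scripts were tested on simulated data. Alternatives were another pseudocount, no scaling, other filters, the exact 1 kept, records summed and an interval rule. Computation used Python 3.11.15 with numpy 2.4.6, pandas 2.3.3, scipy 1.17.1 and matplotlib 3.10.9. Results for some genes are not reported here.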

Additional observations from a re-analysis of the deposited data

Results flagged for a closer look

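There were 2 genes past the 2-fold threshold that differed in sign between the pair with Dex and the pair without it. Dynlt1b, a dynein light chain gene, was at 7.80 RPKM in Dex+DMOG and 3.09 RPKM in Dex, but its difference between DMOG and water was -0.024, with 2.40 and 2.46 RPKM. Rps7, a ribosomal protein gene, was at 40.8 RPKM in Dex+DMOG and 85.4 RPKM in Dex, but its difference between DMOG and water was 0.055, with 70.6 and 67.9 RPKM. The difference between the pairs was not tested for either gene, and 85.9% of Dynlt1b and 64.1% of Rps7 transcript sequence is shared with other genes or pseudogenes.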

How the results depend on the processing

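The 19 genes 2-fold higher became 39 with a pseudocount of 0.1 and 67 at a fold of 1.5, and were 14 to 21 under the other alternatives. The 4 genes 2-fold lower became 9 with a pseudocount of 0.1 and 27 at a fold of 1.5. They became 2 with the records of a symbol summed and, at the pseudocount of 1, 0 without genes of 10% or more shared sequence. With a pseudocount of 0.1, 13 of 120 genes higher with Dex in the CD71 sort and 3 of 152 lower with it were 2-fold higher with DMOG, beside 0.408% of all genes compared. The fold of 1.5 and the omission of shared genes were added after the data were seen. Leaving scaling out, the smaller pseudocount, keeping the exact 1 and summing records changed the sign of 0 named genes past 1.5-fold. Without replicates, all intervals leave out the variation between cultures, and at 19.04 M reads for Dex, levels under 0.158 RPKM on a 1 kb transcript rest on fewer than 3 reads. No paired analysis was possible because each condition has 1 library and the comparison comes from no test.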

Other observations

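Ribosomal protein genes scattered in both directions between Dex+DMOG and Dex. Of 82 compared, 1 was 2-fold higher, Rpl24, and 1 was 2-fold lower, Rps7, while 2 were 1.5-fold higher and 6 were 1.5-fold lower, around a median difference of -0.06. Rpl24 was at 56.9 RPKM in Dex+DMOG and 21.7 RPKM in Dex, and at 18.9 RPKM in DMOG and 15.5 RPKM in water. Rpsa, which encodes a small subunit protein, was at 22.3 and 42.7 RPKM in Dex+DMOG and Dex, against 73.2 and 60.9 RPKM in DMOG and water. Rpl24, Rps7 and Rpsa share 45.3% to 82.1% of their sequence with other genes or pseudogenes.

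A few genes outside the lists of hypoxia and glucocorticoid biology differed as well. Ndufb4, a subunit of respiratory complex I, was at 5.83 RPKM in Dex+DMOG and 2.17 RPKM in Dex, with 38.3% of its sequence shared, and at 7.26 RPKM in DMOG and 4.78 RPKM in water. Gadd45a, a stress-induced growth arrest gene, was at 9.70 RPKM in Dex+DMOG and 14.98 RPKM in Dex, short of 1.5-fold on the scale used. Cox7a1, a subunit of cytochrome oxidase, was at 0.932 RPKM in Dex+DMOG and 2.33 RPKM in Dex. It was at 1.43 RPKM in DMOG and 0.630 RPKM in water, so its pairs differed in direction, which was not tested. By the filter of 1 RPKM, it could only stand lower in the pair with Dex and only higher in the pair without.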
